A study of Mus musculus with 20 samples.

Results

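The enzymes that burn fatty acids and run the TCA cycle were followed as 37 named genes across the 3 cell types of the pressure-overloaded mouse heart. The members are a list of gene symbols, from the carnitine shuttle to malate dehydrogenase, drawn up with earlier results of these data known, and all 37 were found in each of the 3 tables, which hold 13929 genes for endothelial cells (ECs), 13563 for fibroblasts (FBs) and 13038 for cardiomyocytes (CMs), 15015 different genes in all. Where a gene had several transcript rows, the row with the highest mean stood for it. *Gadlor*-KO mice lack both lncRNAs *Gadlor1* and *Gadlor2* in every cell, through a CRISPR-Cas9 deletion made in embryonic stem cells and carried as a line from 1 clone, and WT mice were their controls. Every sample, WT included, came from hearts 2 weeks after transverse aortic constriction (TAC), which narrows the aorta and loads the left ventricle, in mice of both sexes aged 8 to 10 weeks at the operation. There were 4 *Gadlor*-KO and 4 WT samples of ECs, selected with CD146 beads, 3 and 3 samples of FBs, taken from the remaining cells with feeder removal beads, and 3 and 3 samples of CMs, collected by Langendorff perfusion and sedimentation.

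In the healthy adult heart, mitochondria make most ATP from fatty acids. The carnitine shuttle carries long-chain acyl groups across the mitochondrial membranes, a spiral of dehydrogenation, hydration, a second dehydrogenation and thiolysis then cuts off acetyl-CoA, and the TCA cycle oxidizes it, while pyruvate dehydrogenase lets carbon from glucose in at the same point. Levels of these enzymes are known to fall in overloaded and failing hearts, and CMs, which are packed with mitochondria, hold far more of them than the other cells of the heart.

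Values are log2 CPM, read counts scaled to a common library size by the authors, so that 1 unit is a doubling. Each table had been scaled on its own. Read from the steps between low values, the effective library size in M reads (mega-reads) was 40.1 to 55.4 in *Gadlor*-KO and 45.1 to 54.8 in WT ECs, 22.9 to 33.8 and 15.0 to 59.8 in FBs, and 10.6 to 16.3 and 17.0 to 20.2 in CMs. The fewest reads behind a member, about 27.7, were those of *Suclg2* in KO 1 CMs at 1.32 log2 CPM. Mitochondrially encoded transcripts held 65.1% to 75.6% of the CPM in *Gadlor*-KO and 26.7% to 46.8% in WT CMs. The methods speak of biological replicates for all experiments, but which animals each library came from is not given in the sources used here, so the p-values measure the spread between these samples, which may be partly technical. *Gadlor1* and *Gadlor2* were not analysed here, so no check of the genotype labels was made on the deleted genes.

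The CM libraries differed in more than these enzymes. All 10 cardiomyocyte markers fell in *Gadlor*-KO CMs (median log2 difference -4.33), with a mean level of 5.80, 5.29 and 8.47 log2 CPM in KO 1, KO 2 and KO 3, against 11.11, 10.83 and 10.48 in WT 1, WT 2 and WT 6. *Myh6*, the main adult myosin heavy chain, lay at 7.33, 6.86 and 10.01 log2 CPM in KO 1, KO 2 and KO 3 and at 13.37, 12.90 and 13.07 in WT 1, WT 2 and WT 6. Markers of other cells were higher: 10 of 10 endothelial (median 2.66), 7 of 8 fibroblast (4.37) and 8 of 8 macrophage (4.63). Of all CM genes 21.3% were called higher. The epicardial markers passed at 2 of 4 (3.88). The mural markers passed at 2 of 8 (1.73), near the share of all genes, and 3 of the 8 were negative. Their mean in KO 1, 3.95 log2 CPM, lay within the WT range (3.52 to 4.42). Of the erythroid markers 0 of 5 passed, 4 of them at an unadjusted p under 0.05 (7.12). KO 1 stood apart in the erythroid markers, with a mean of 10.97 log2 CPM, against 2.76 and 3.70 in KO 2 and KO 3, and in the epicardial markers, with 7.11 against 3.07 and 3.097. Without KO 1 the median difference was 4.51 for the erythroid, 2.40 for the epicardial and 2.53 for the mural markers. The erythroid mean was -3.59, -1.60 and 3.17 log2 CPM in WT 1, WT 2 and WT 6, so that WT 6 lay above KO 2. The genotypes were apart in 0 of the 5 erythroid markers. Their median in WT 1, -3.97, was the lowest of all CM values. The mean level of the endothelial markers was 5.94 to 7.14 log2 CPM in *Gadlor*-KO and 3.40 to 4.63 in WT CMs, that of the fibroblast markers 6.06 to 7.22 and 2.09 to 3.16, and that of the macrophage markers 4.64 to 6.06 and -0.37 to 1.497. The summed level of the cardiomyocyte markers was 457 to 4262 CPM in *Gadlor*-KO and 22750 to 28808 CPM in WT CMs, and no defining marker of that list was at 0. In the libraries labelled KO 1 and KO 2, both the endothelial and the fibroblast markers exceeded the cardiomyocyte markers, which goes against the label of a purified CM sample, whereas in KO 3 the cardiomyocyte markers were the highest list. The part of these markers in the enzyme differences below was not tested by an independent measure. In bulk samples, fewer cells of a type and less RNA per cell cannot be told apart.

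**Figure D1:**
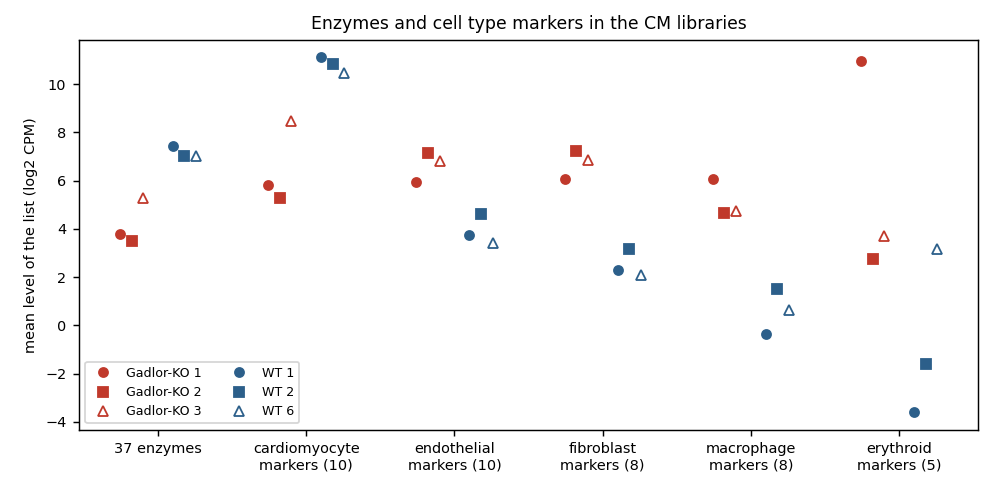
Mean level (log2 CPM) of the 37 enzymes and of 5 marker lists in each CM library, with *Gadlor*-KO libraries in red left of WT libraries in blue. Enzymes and cardiomyocyte markers are lower in all 3 *Gadlor*-KO libraries, with KO 3 nearest to WT, and endothelial, fibroblast and macrophage markers are higher in all 3.

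Nearly the whole pathway was lower in *Gadlor*-KO than in WT CMs. A gene was called at a Benjamini-Hochberg adjusted p under 0.05 (limma, over all genes of the table) with a fold change above 1.5. Of the 37 members 34 fell, 1 rose (*Cpt1a*) and 2 did not pass (*Dld* and *Sucla2*), and the median log2 fold change was -3.16, against a median of 0.15 over all genes. Among all genes of the CM table, 19.6% were called lower and 21.3% higher. The mean level of the 37 was 3.80, 3.51 and 5.26 log2 CPM in KO 1, KO 2 and KO 3 and 7.44, 7.01 and 7.04 in WT 1, WT 2 and WT 6. Summed, they held 575 to 1935 CPM in *Gadlor*-KO and 6939 to 10353 CPM in WT CMs. In 34 members the genotypes did not overlap, as in 59.5% of all genes, and in 36 members KO 3 was the highest of the *Gadlor*-KO libraries.

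**Figure D2:**
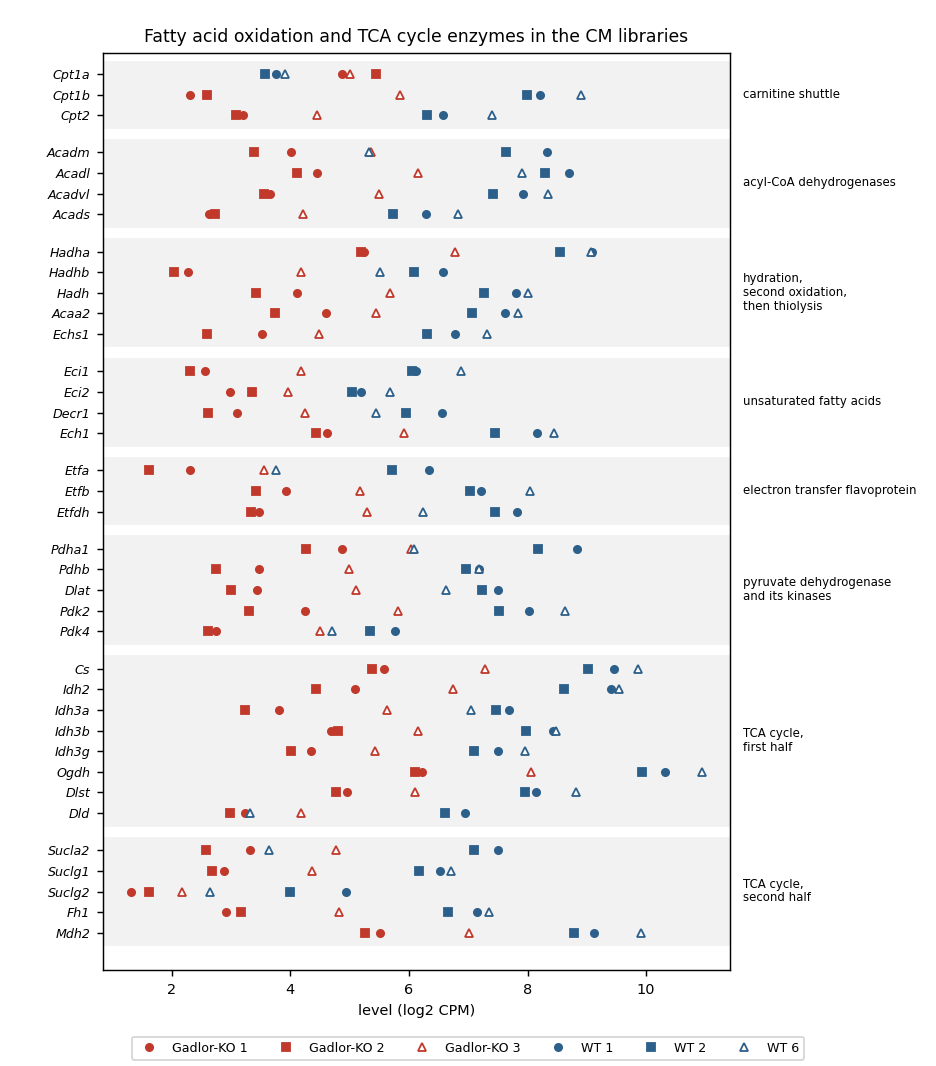
Level (log2 CPM) of each of the 37 enzymes in the 6 CM libraries, ordered by step, with *Gadlor*-KO libraries in red and WT libraries in blue. *Cpt1a* alone is higher in *Gadlor*-KO CMs, KO 3 lies between the other *Gadlor*-KO libraries and WT in most rows, and WT 6 falls among or near *Gadlor*-KO values for *Acadm*, *Etfa*, *Pdha1*, *Pdk4*, *Dld*, *Sucla2* and *Suclg2*.

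The carnitine shuttle held both extremes. *Cpt1b*, the muscle isozyme of carnitine palmitoyltransferase 1 that commits long-chain fatty acids to oxidation, lay at 2.30, 2.60 and 5.85 log2 CPM in KO 1, KO 2 and KO 3, against 8.21, 7.99 and 8.89 in WT 1, WT 2 and WT 6. It fell by 4.78 on the log2 scale (SE 0.94, limma adjusted p = 0.00934), the largest fall of any member, and every *Gadlor*-KO library was below every WT library. *Cpt1a*, the isozyme known from liver and most other tissues, moved the other way, with 4.88, 5.44 and 4.998 log2 CPM in KO 1, KO 2 and KO 3 and 3.75, 3.58 and 3.90 in WT 1, WT 2 and WT 6. The groups did not overlap here either (log2 difference 1.36, SE 0.28, limma adjusted p = 0.0101). *Cpt2*, which rebuilds the acyl-CoA inside the mitochondrion, had 3.20, 3.08 and 4.44 log2 CPM in KO 1, KO 2 and KO 3, against 6.57, 6.30 and 7.39 in WT 1, WT 2 and WT 6 (log2 difference -3.18, SE 0.48, limma adjusted p = 0.0061).

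All 4 acyl-CoA dehydrogenases, which open each turn of the spiral and differ in the chain length they accept, fell (median log2 difference -3.24). *Acadvl*, for very long chains, lay at 3.66, 3.56 and 5.50 log2 CPM in KO 1, KO 2 and KO 3 and at 7.93, 7.42 and 8.34 in WT 1, WT 2 and WT 6 (log2 difference -3.66, SE 0.59, limma adjusted p = 0.00675). *Acadl*, for long chains, lay at 4.45, 4.11 and 6.14 in KO 1, KO 2 and KO 3, against 8.69, 8.29 and 7.91 in WT 1, WT 2 and WT 6 (-3.40, SE 0.59, limma adjusted p = 0.00717). In both genes the groups were apart. *Acads*, for short chains, had -3.09 and *Acadm*, for medium chains, -2.85, and in *Acadm* the groups overlapped (5.37 log2 CPM in KO 3, against 5.33 in WT 6).

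The 5 enzymes of hydration, second oxidation and thiolysis fell by similar amounts, between -3.29 and -2.91. *Hadh*, the 3-hydroxyacyl-CoA dehydrogenase for shorter chains, lay at 4.12, 3.42 and 5.67 log2 CPM in KO 1, KO 2 and KO 3 and at 7.81, 7.27 and 8.01 in WT 1, WT 2 and WT 6 (log2 difference -3.29, SE 0.60, limma adjusted p = 0.00802). *Echs1*, the short-chain enoyl-CoA hydratase, lay at 3.53, 2.59 and 4.49 in KO 1, KO 2 and KO 3, against 6.78, 6.31 and 7.31 in WT 1, WT 2 and WT 6 (-3.27, SE 0.54, limma adjusted p = 0.00679). *Hadha* and *Hadhb*, the subunits of the trifunctional protein that handles long chains, had -3.16 and -3.23, and the thiolase *Acaa2* had -2.91.

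The auxiliary enzymes for unsaturated fatty acids, which move or reduce double bonds, also fell in all 4 cases (median -2.85). The isomerase *Eci1* lay at 2.57, 2.31 and 4.18 log2 CPM in KO 1, KO 2 and KO 3 and at 6.13, 6.04 and 6.89 in WT 1, WT 2 and WT 6 (log2 difference -3.33, SE 0.55, limma adjusted p = 0.00679). *Ech1*, the dienoyl-CoA isomerase, lay at 4.63, 4.43 and 5.91 in KO 1, KO 2 and KO 3, against 8.15, 7.46 and 8.45 in WT 1, WT 2 and WT 6 (-3.03, SE 0.51, limma adjusted p = 0.00676). *Eci2*, an isomerase found in mitochondria and peroxisomes, had the smallest fall of all called members (-1.87), and the reductase *Decr1* had -2.67.

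The electron transfer flavoprotein takes electrons from the acyl-CoA dehydrogenases and passes them to ubiquinone, and its 3 genes fell together. *Etfb*, the beta subunit, lay at 3.93, 3.41 and 5.17 log2 CPM in KO 1, KO 2 and KO 3 and at 7.22, 7.02 and 8.04 in WT 1, WT 2 and WT 6 (log2 difference -3.26, SE 0.54, limma adjusted p = 0.00676). *Etfdh*, the ubiquinone oxidoreductase, lay at 3.48, 3.33 and 5.29 in KO 1, KO 2 and KO 3, against 7.82, 7.46 and 6.24 in WT 1, WT 2 and WT 6 (-3.14, SE 0.66, limma adjusted p = 0.0112). For the alpha subunit *Etfa* the fall was 2.78 on the log2 scale, and KO 3 at 3.56 log2 CPM lay just below WT 6 at 3.76.

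At the entry of pyruvate, all listed members fell (5 of 5, median log2 difference -3.27). These are catalytic subunits and *Pdk2* and *Pdk4*, of the kinases that switch the complex off. *Pdk2*, a widely expressed pyruvate dehydrogenase kinase, lay at 4.25, 3.30 and 5.81 log2 CPM in KO 1, KO 2 and KO 3 and at 8.02, 7.52 and 8.64 in WT 1, WT 2 and WT 6 (log2 difference -3.61, SE 0.68, limma adjusted p = 0.00839). *Pdk4*, the kinase induced by fasting and by PPAR signaling, lay at 2.75, 2.62 and 4.50 in KO 1, KO 2 and KO 3, against 5.76, 5.34 and 4.71 in WT 1, WT 2 and WT 6 (-1.98, SE 0.57, limma adjusted p = 0.0318). The groups were well apart in *Pdk2* and nearly touched in *Pdk4*, where WT 6 was close to KO 3. *Pdhb*, the beta subunit of the E1 enzyme, lay at 3.48, 2.74 and 4.98 log2 CPM in KO 1, KO 2 and KO 3 and at 7.17, 6.95 and 7.18 in WT 1, WT 2 and WT 6 (-3.37, SE 0.57, limma adjusted p = 0.00688). The E1 alpha subunit *Pdha1* had -2.65 and the E2 enzyme *Dlat* -3.27.

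In the part of the TCA cycle from citrate synthase to the 2-oxoglutarate dehydrogenase complex 7 of 8 genes fell (median -3.13). *Idh2*, the NADP-dependent mitochondrial isocitrate dehydrogenase, lay at 5.10, 4.44 and 6.75 log2 CPM in KO 1, KO 2 and KO 3 and at 9.40, 8.61 and 9.55 in WT 1, WT 2 and WT 6 (log2 difference -3.76, SE 0.66, limma adjusted p = 0.00725), the second largest fall after *Cpt1b*. *Ogdh*, the E1 subunit of the 2-oxoglutarate dehydrogenase complex, lay at 6.22, 6.11 and 8.06 in KO 1, KO 2 and KO 3, against 10.31, 9.93 and 10.93 in WT 1, WT 2 and WT 6 (-3.59, SE 0.66, limma adjusted p = 0.00766). Citrate synthase (*Cs*) had -3.36, the 3 subunits of the NAD-dependent isocitrate dehydrogenase had -3.18 (*Idh3a*), -3.08 (*Idh3b*) and -2.93 (*Idh3g*), and the E2 subunit *Dlst* had -3.02. *Dld*, the E3 enzyme shared by the dehydrogenase complexes, lay at 3.24, 2.98 and 4.17 log2 CPM in KO 1, KO 2 and KO 3 and at 6.95, 6.62 and 3.32 in WT 1, WT 2 and WT 6, so that WT 6 fell among the *Gadlor*-KO libraries (-2.16, SE 0.97, limma adjusted p = 0.118).

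In the rest of the cycle, from succinyl-CoA to oxaloacetate, 4 of 5 genes fell (median -3.16). *Fh1*, fumarate hydratase, lay at 2.92, 3.16 and 4.82 log2 CPM in KO 1, KO 2 and KO 3 and at 7.15, 6.66 and 7.35 in WT 1, WT 2 and WT 6 (log2 difference -3.42, SE 0.55, limma adjusted p = 0.00665). *Mdh2*, the mitochondrial malate dehydrogenase, lay at 5.51, 5.26 and 7.02 in KO 1, KO 2 and KO 3, against 9.12, 8.78 and 9.92 in WT 1, WT 2 and WT 6 (-3.34, SE 0.60, limma adjusted p = 0.00726). Of the succinyl-CoA synthetase subunits, *Suclg1*, the shared alpha subunit, had -3.16 and *Suclg2*, the GTP-specific beta subunit, -2.15. The ATP-specific beta subunit *Sucla2* lay at 3.32, 2.57 and 4.77 log2 CPM in KO 1, KO 2 and KO 3 and at 7.50, 7.09 and 3.64 in WT 1, WT 2 and WT 6, again with WT 6 among the *Gadlor*-KO libraries (-2.52, SE 1.09, limma adjusted p = 0.109).

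The size of these falls and some of the calls changed when single libraries were left out. Without both KO 1 and KO 2, an alternative chosen after seeing the data, KO 3 alone was set against 3 WT libraries in limma, which assumes that it varies like them. The median of the members was then -2.11, *Cpt1b* had -2.51 and *Cpt1a* 1.25, 36 members were negative and 1 positive, and 0 were called (28 negative and 1 positive by the unadjusted p of 0.05 and a fold above 1.5). Over all genes 0 were called in that fit as well, and by the same unadjusted p and fold 14.5% were higher and 9.91% lower. Leaving out KO 1, KO 2, WT 1 or WT 2 alone left 29 members lower, as *Acadm*, *Etfa*, *Pdha1*, *Pdk4* and *Suclg2* no longer passed. Of all 13038 CM genes, 1368 to 1924 were called lower and 1617 to 2410 higher in these fits. Without WT 6, 36 members fell and 1 rose, with *Dld* at -3.32 and *Sucla2* at -3.74 (limma adjusted p = 0.0046 and 0.00822) and a median of -3.14. Of all 13038 CM genes, 3627 were called lower and 3425 higher without WT 6.

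Set against the cardiomyocyte markers of the same library, the direction turned. With every library centred on the mean of its 10 cardiomyocyte markers, the median log2 fold change of the members was 1.12, 36 were positive and 1 negative (*Cpt1b*, -0.49, limma adjusted p = 0.67), and 2 were called, *Cpt1a* (5.64) and *Eci2* (2.41), both higher. On that scale 87.5% of all genes were called higher and the median of all genes was 4.44, since markers that changed by a median of -4.33 set the zero. The members' mean level minus that of the cardiomyocyte markers was -2.001, -1.78 and -3.22 log2 units in KO 1, KO 2 and KO 3 and -3.66, -3.81 and -3.44 in WT 1, WT 2 and WT 6. For *Cpt1b* the difference from the markers was smaller than the spread between libraries. Scaling without the mitochondrially encoded genes, which moved the median of all genes to 0.89, left a median of -2.43, with 29 members lower and 1 higher. Of all 13038 CM genes, 1495 were called lower and 4407 higher on that scale.

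WT 6 differed from the other WT CM libraries along the base composition of the transcripts. Relative to the mean of WT 1 and WT 2, *Sucla2* was lower by 3.65 log2 units in WT 6, *Dld* by 3.47, *Acadm* by 2.65, *Pdha1* by 2.42, *Etfa* by 2.27, *Suclg2* by 1.82 and *Etfdh* by 1.39, whereas *Mdh2* was higher by 0.97 and *Cpt2* by 0.96. The 6 members with a GC content under 45% had a median of -1.33, the 9 members between 45% and 50% had -0.82, and the 22 members with 50% or more had 0.67. Over the members the deviation followed the GC content with Pearson's r = 0.80 and Spearman's rho = 0.87 (n = 37 genes of the same libraries, which are not independent replicates). Over 11609 genes with a WT mean of at least 1 CPM, rho was 0.73. With each library's deviations centred in bins of GC content, an alternative chosen after seeing the data, 36 members fell and 1 rose, and the median was -3.08. Of all 13038 CM genes, 3165 were called lower and 3423 higher in that fit.

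**Figure D3:**
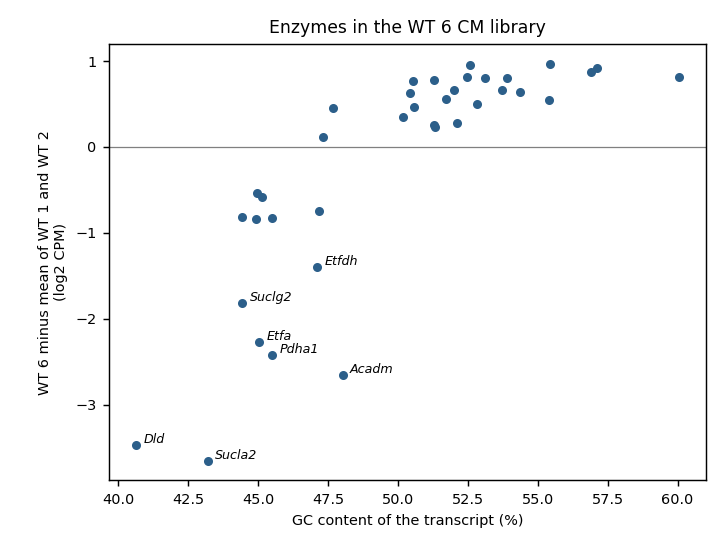
Difference of WT 6 from the mean of WT 1 and WT 2 (log2 CPM) against the GC content of the transcript (%) for the 37 enzymes, each point 1 gene. The genes furthest below 0, *Sucla2* and *Dld*, have the lowest GC content, and every enzyme with 50% GC or more lies above 0.

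In ECs, where the levels of these enzymes were closely matched between libraries, no member was called. The mean level of the 37 was 4.01 to 4.12 log2 CPM in *Gadlor*-KO and 3.89 to 4.20 in WT ECs, the median log2 fold change was 0.08, and 28 members were positive and 9 negative. Of all EC genes, 5.31% were called lower and 2.08% higher in limma. At an unadjusted p under 0.05, 3 members were positive (*Eci2* 0.19, *Dld* 0.16, *Dlst* 0.13) and 1 negative (*Cpt1b*), 4 of 37, while 35.7% of all EC genes passed that p. The groups of *Cpt1b* did not overlap, as in 26.2% of all EC genes, and this was the only member for which that held.

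*Cpt1b* lay at 2.22, 2.43, 2.12 and 2.25 log2 CPM in the *Gadlor*-KO ECs and at 2.59, 2.57, 3.27 and 2.66 in the WT ECs, a log2 fold change of -0.52 (SE 0.15, limma adjusted p = 0.0387) that passed the p threshold but not the fold threshold. WT 34 was the highest library. Cardiomyocyte markers averaged 4.21 to 4.76 log2 CPM in *Gadlor*-KO ECs, 3.51 to 5.08 in the other WT ECs and 5.55 in WT 34, and their part in the *Cpt1b* difference was not tested. Without WT 32 the log2 fold change was -0.59 and passed both thresholds, without WT 34 it was -0.35, and over all alternatives the limma adjusted p ran between 0.0348 and 0.0883. *Cpt1a*, the main isozyme of ECs, lay at 5.90, 5.99, 6.13 and 6.32 log2 CPM in *Gadlor*-KO and at 6.04, 6.07, 5.77 and 5.46 in WT ECs, with overlapping groups (log2 difference 0.25, SE 0.14, limma adjusted p = 0.236). *Cpt2* had 0.24 (limma adjusted p = 0.167). *Pdk2* lay at 4.24, 4.41, 4.20 and 4.14 log2 CPM in *Gadlor*-KO and at 4.24, 4.20, 4.56 and 4.29 in WT ECs (-0.07, SE 0.09, limma adjusted p = 0.61). *Pdk4* lay at 2.71, 3.16, 3.37 and 3.34 in *Gadlor*-KO and at 2.72, 2.88, 3.64 and 3.08 in WT ECs (0.07, SE 0.21, limma adjusted p = 0.852). In both kinases the libraries of the genotypes were interleaved.

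In FBs no member was called either, in a table where 0.00737% of all genes were called higher and 0% lower in limma. The mean level of the 37 was 3.38 to 3.42 log2 CPM in *Gadlor*-KO and 3.29 to 3.62 in WT FBs, with a median log2 fold change of -0.01. At an unadjusted p under 0.05, 2 members were positive and 2 negative, 4 of 37, while 14.8% of all FB genes passed that p. The groups did not overlap in 8 of 37 members, against 21.3% of all genes.

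None of these 4, *Cpt2*, *Acaa2*, *Cpt1b* and *Hadhb*, passed the adjustment. *Cpt2* lay at 2.34, 2.02 and 2.55 log2 CPM in the *Gadlor*-KO FBs and at 3.05, 3.15 and 2.98 in the WT FBs (log2 difference -0.75, SE 0.19, limma adjusted p = 0.175). *Cpt1b* lay at 2.05, 1.98 and 1.72 in *Gadlor*-KO and at 1.31, 0.79 and 1.16 in WT FBs (0.83, SE 0.24, limma adjusted p = 0.196). *Acaa2* had -0.57 and *Hadhb* 0.60 (limma adjusted p = 0.214 and 0.321). *Cpt1a* lay at 5.02, 4.86 and 4.77 log2 CPM in *Gadlor*-KO and at 4.88, 5.62 and 6.08 in WT FBs (-0.65, SE 0.30, limma adjusted p = 0.375). Its lowest WT value was that of WT 260, inside the *Gadlor*-KO range. *Pdk2* had -0.11, with 3.96, 4.21 and 4.17 log2 CPM in *Gadlor*-KO and 4.78, 3.98 and 3.91 in WT FBs. *Pdk4* had 0.04, with 3.83, 1.24 and 1.47 in *Gadlor*-KO and 1.66, 2.68 and 2.11 in WT FBs, so that the spread within *Gadlor*-KO exceeded the difference between the means.

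The FB libraries also differed in makeup. Mitochondrially encoded transcripts held 46.3% to 60.9% of the CPM in *Gadlor*-KO FBs, 73.6% in WT 260, and 3.81% and 5.69% in the other WT FBs. Endothelial markers averaged 6.16 to 6.82 log2 CPM in *Gadlor*-KO FBs, 5.43 in WT 260, and 0.92 and 2.59 in the other WT FBs. The 10 endothelial markers had a median of 3.92 on the log2 scale and did not overlap between the genotypes, though 0 were called, and the 10 cardiomyocyte markers had a median of 1.94. Fibroblast markers averaged 8.46 to 8.96 log2 CPM in *Gadlor*-KO and 8.94 to 9.95 in WT FBs. The part of these markers in the members' values was not tested. Without WT 260, *Cpt1a* fell by 0.97 on the log2 scale (limma adjusted p = 0.0251) and was the only member called, while 828 genes were called higher and 447 lower in all. Centred on the fibroblast markers, the members' median was 0.75 and 2 were called higher, *Cpt1b* (1.59) and *Hadhb* (1.37), while the median of all genes moved to 0.77 and 12.1% of all genes were called higher. With WT 260 left out as well, a combination chosen after seeing the data, 32 members were called higher, as were 64.6% of all genes (medians 1.12 and 1.03).

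**Figure D4:**
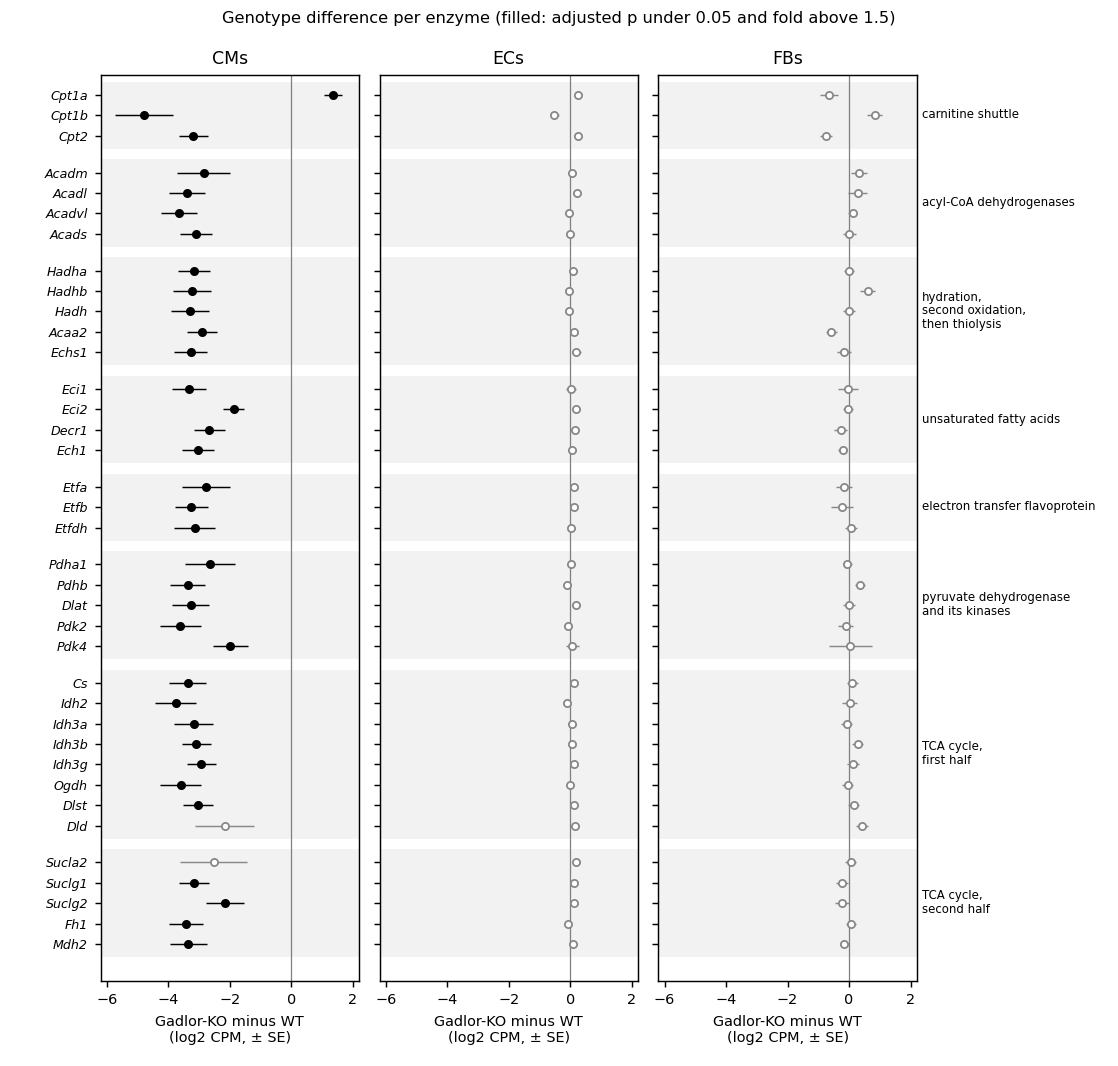
Difference between *Gadlor*-KO and WT (log2 fold change ± SE from limma) for the 37 enzymes in CMs, ECs and FBs, with filled points for called genes. In CMs all enzymes but *Cpt1a* lie left of 0, and in ECs and FBs all lie between -0.75 and 0.83 with 0 called.

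The genotype difference of most members differed between CMs and the other cell types. In a model over all 20 samples, the difference in CMs minus that in ECs passed an adjusted p of 0.05 (limma) for 37 of 37 members, 36 of them negative, and for 53.4% of all 12157 shared genes. The difference in CMs minus that in FBs passed for 36 of 37 members, 35 of them negative, and for 47.5% of all genes, *Pdk4* being the exception (-2.02, SE 0.82, limma adjusted p = 0.0531). *Cpt1a* was positive in both, by 1.11 against ECs (SE 0.33, limma adjusted p = 0.0095) and by 2.01 against FBs (SE 0.35, limma adjusted p = 2.06e-04). *Cpt1b* had the most negative values, -4.26 against ECs and -5.61 against FBs. Between FBs and ECs, 0 of 37 members passed (2 at an unadjusted p under 0.05, *Cpt1a* and *Cpt2*), against 2.43% of all genes. In this model the cell types share an estimate of spread per gene, and most members spread more in CMs. *Dld* and *Sucla2* did not pass in CMs alone (SE 0.97 and 1.09, limma adjusted p = 0.118 and 0.109). Here they passed against ECs (SE 0.81 and 0.92, limma adjusted p = 0.0232 and 0.0199).

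The balance of the isozymes was compared within each library, where scaling drops out but cell makeup does not. *Cpt1b* was higher in WT CMs than in WT ECs and FBs (8.36, 2.77 and 1.09 log2 CPM). *Cpt1a* was lower in WT CMs (3.75, 5.83 and 5.53 log2 CPM). The part of cell makeup in the ratio was not tested. *Cpt1b* minus *Cpt1a* was -2.57, -2.84 and 0.85 log2 units in KO 1, KO 2 and KO 3 of CMs, against 4.45, 4.41 and 4.99 in WT 1, WT 2 and WT 6. The muscle isozyme lay below the other one in KO 1 and KO 2, and above it in KO 3 and in all WT CMs. The difference of -6.14 had an exact two-sided permutation p of 0.1, the smallest that 3 against 3 samples allow (0.15 after Benjamini-Hochberg adjustment over 6 tests). In ECs the same quantity was -3.68, -3.56, -4.01 and -4.07 in *Gadlor*-KO and -3.45, -3.49, -2.50 and -2.81 in WT libraries, lower in 4 of 4 *Gadlor*-KO libraries than in any WT library (log2 difference -0.77, exact two-sided permutation p = 0.0286, the smallest for 4 against 4, adjusted 0.15). In FBs it was -2.97, -2.87 and -3.05 in *Gadlor*-KO and -3.57, -4.83 and -4.93 in WT libraries (log2 difference 1.48, exact permutation p = 0.1, adjusted 0.15). *Pdk4* minus *Pdk2* was -1.496, -0.69 and -1.31 in KO 1, KO 2 and KO 3 of CMs and -2.25, -2.18 and -3.93 in WT 1, WT 2 and WT 6 (log2 difference 1.62, exact permutation p = 0.1, adjusted 0.15). In ECs and FBs the kinase ratio differed by 0.14 in each (exact permutation p = 0.514 and 0.8).

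**Figure D5:**
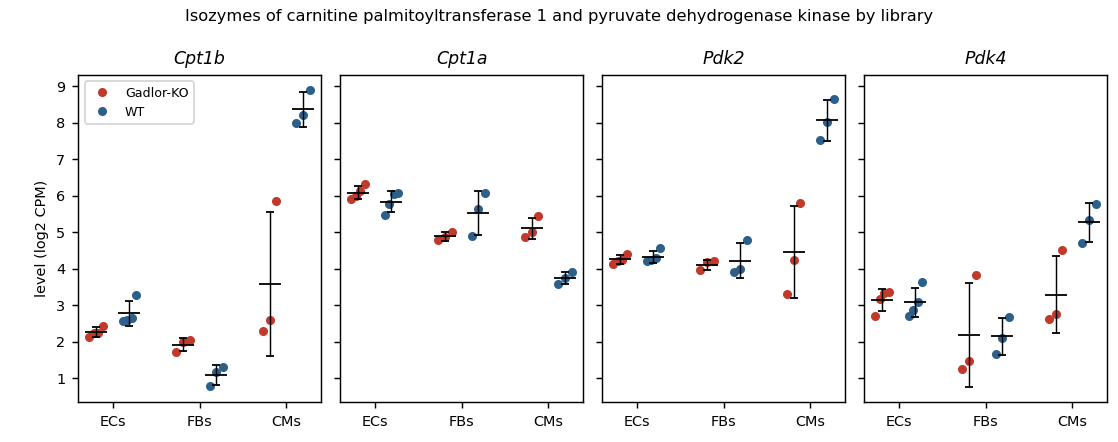
Level (log2 CPM) of *Cpt1b*, *Cpt1a*, *Pdk2* and *Pdk4* in each library of ECs, FBs and CMs, with *Gadlor*-KO in red left of WT in blue, and bars for the mean ± SD (n = 4 per genotype in ECs, 3 in FBs and CMs). *Cpt1b* separates WT CMs from all other cells, and *Cpt1a* is lowest in WT CMs.

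Levels in the different cell types are set side by side here only as a description, since the tables were scaled separately. In *Gadlor*-KO libraries, CMs exceeded ECs by a median of 0.18 log2 units, with 22 of 37 members higher in CMs, and the range ran from -0.98 for *Cpt1a* to 1.33 for *Cpt1b*. In WT libraries the median excess of CMs over ECs was 3.39, with 36 of 37 members higher in CMs, between -2.09 for *Cpt1a* and 5.59 for *Cpt1b*. After *Cpt1a*, the smallest excess in WT CMs was that of *Eci2* (1.41). For *Eci2* the row kept in CMs was another transcript (1746 bases) than that kept in ECs and FBs (1426 bases). Against FBs, CMs were higher by a median of 0.73 in *Gadlor*-KO and by 3.92 in WT libraries. The mean level of the 37 in KO 1 and KO 2 CMs (3.80 and 3.51 log2 CPM) thus lay between the levels of *Gadlor*-KO FBs and *Gadlor*-KO ECs, while KO 3 (5.26) lay above both.

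Per kilobase of transcript, the same genes stood at the ends of the order in nearly all groups. *Mdh2* was highest throughout, at 5.39, 5.16 and 4.37 log2 CPM per kilobase in *Gadlor*-KO CMs, ECs and FBs and at 8.73, 5.08 and 4.52 in WT CMs, ECs and FBs. *Ogdh* was among the 3 highest in each of the 6 groups, and *Suclg2* was the lowest in all but WT CMs, where *Cpt1a* was lower (1.64, against 2.10 for *Suclg2*). *Cpt1b* ranked 31 of 37 in *Gadlor*-KO CMs and 15 in WT CMs, 36 in both genotypes of ECs, and 35 in *Gadlor*-KO and 36 in WT FBs. *Cpt1a* ranked 19 in *Gadlor*-KO CMs, 37 in WT CMs and 11 in ECs of both genotypes.

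Other genes of the same metabolism, from lists of neighbouring pathways, moved with the members in CMs. Of 15 further genes of mitochondrial beta-oxidation, 13 fell (median -2.77), among them *Mlycd*, which removes the CPT1 inhibitor malonyl-CoA (-2.50), *Acacb*, which makes it at the mitochondrion (-3.14), *Hsd17b10* (-2.62) and the acetyl-CoA synthetase *Acss1* (-3.65). Of 17 further genes of the TCA cycle and pyruvate entry 13 fell (median -2.50), including the succinate dehydrogenase subunits *Sdha* (-2.98) and *Sdhb* (-3.57), *Pdhx* (-3.30) and *Lias* (-1.77), and 1 rose, the kinase *Pdk3* (1.96), named after its value was seen. Both genes of ketone body oxidation fell, *Bdh1* by 4.61 and *Oxct1* by 2.85 on the log2 scale. Of 10 genes of peroxisomal beta-oxidation 4 fell (median -0.87). These counts stand beside 19.6% of all CM genes called lower and 21.3% called higher.

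In ECs, 2 of the 15 genes listed for mitochondrial beta-oxidation fell, the carnitine transporter *Slc22a5* (-0.65) and the thioesterase *Acot13* (-0.91) (limma adjusted p = 2.26e-04 and 0.0238). Among all EC genes 5.31% were called lower. Of the 16 further genes of the TCA cycle and pyruvate entry 0 passed. At an unadjusted p under 0.05 in limma, 4 of the 16 passed, as did 35.7% of all EC genes. In FBs 0 genes of any of these lists passed in limma, with at most 2 in a list at an unadjusted p under 0.05. Erythroid markers fell at 5 of 5 in ECs (median -1.06), and macrophage markers had a median of -0.89 with 0 of 8 called. Mural markers averaged 7.26 to 7.62 log2 CPM in *Gadlor*-KO and 7.22 to 7.59 in WT ECs, with 0 of 8 called. Endothelial markers averaged 8.62 to 8.76 log2 CPM in *Gadlor*-KO and 8.63 to 8.79 in WT ECs. The 1 adipocyte marker measured in ECs, *Cfd*, rose by 5.48 on the log2 scale (limma adjusted p = 9.28e-04). It lay at -0.35 to 2.67 log2 CPM in *Gadlor*-KO and at -5.62 to -2.93 in WT ECs, near or at the lowest of all EC values (-5.62). Mitochondrially encoded transcripts held 8.03% to 20.4% of the CPM in *Gadlor*-KO and 5.25% to 8.59% in WT ECs.

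Of the 17 listed regulators of these enzymes, 7 were called lower and 2 higher in CMs (median -2.003). Among all CM genes 19.6% were called lower and 21.3% higher. The estrogen-related receptor *Esrra*, which drives genes of mitochondrial metabolism together with PGC-1α, had 2.80 log2 units less in *Gadlor*-KO than in WT CMs (SE 0.45, limma adjusted p = 0.00669), and *Ppara*, the fatty acid receptor that induces beta-oxidation, 3.02 less (SE 0.60, limma adjusted p = 0.00977). *Perm1*, a muscle partner of these receptors, had -4.16, the mitochondrial deacetylase *Sirt3* -2.43 and *Klf15* -2.003. *Ppargc1a*, the gene of PGC-1α, had -3.22 and *Esrrg* -2.52 without passing (SE 1.28 and 0.88, limma adjusted p = 0.085 and 0.0592). *Nrf1* (1.17) and *Pparg* (1.65), the receptor known from adipocytes and ECs, were the 2 that rose, named here after their values were seen. Of 8 other known PPAR targets, 3 fell and 2 rose, among them *Plin5* (-4.47) and *Fabp3* (-4.20), which store and carry fatty acids in the cell, and *Angptl4* (3.90). In ECs *Klf15* rose by 1.65, and *Esrra* (-0.09), *Esrrg* (-0.13) and *Ppargc1a* (0.40) did not pass. In FBs *Esrra* had 0.02 and *Esrrg* 0.63, and 0 of 14 measured regulators passed (2 at an unadjusted p under 0.05).

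Since the estrogen-related receptors bind the motif AAGGTCA, the members' promoters were searched for these letters on both strands, from 250 bases before to 50 after the transcription start (RefSeq, GRCm38.p6). Of 33 members with a window in the table, 2 held the motif (6.06%), against 5.38% of all 27025 genes, and the shorter motif AGGTCA, which lies within it, was found in 8 members (24.2%), against 18.1% of all genes. Both matches lie on the reverse strand of the promoter as printed and are shown with their flanks, the match in capitals, for the genes *Acadm* (chr3:153944876-153944893, minus strand) and *Ogdh* (chr11:6292155-6292181, plus strand).
Acadm: gTGACCTTcgggctccgg
Ogdh: gacacggcgcTGACCTTggtgcctgcg
The *Acadm* match lies at the upstream end of the window and the *Ogdh* match spans the start of the window's transcript, which lies downstream of the first base of the gene (6291597). Genes could have several windows, 39 for the 33 members. Both genes were lower in *Gadlor*-KO CMs, by 2.85 and 3.59 on the log2 scale, as were members without a match, and the share of members with a match was near that of all genes.

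The 37 genes lie on 18 chromosomes, with at most 4 on any of them. *Hadha* and *Hadhb*, known to share a promoter region, are neighbours on chromosome 5 (30119423 to 30154980 and 30155253 to 30184593 in GRCm38). They differed little in their CM fold changes (-3.16 and -3.23), while in FBs *Hadhb* had 0.60 and *Hadha* a value within 0.01 of 0.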

How the data were processed

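mRNA was sequenced from isolated cardiac cells (single reads of 50 bases, stranded). The authors cleaned the reads, aligned them with Bowtie2 to mm10 and deposited log2 CPM per transcript in 1 table per cell type; DESeq2 is named in the submitters' processing notes and edgeR in the methods, and no versions are given in the sources used here. The deposited log2 CPM values were used as they stand. The tables also hold the authors' own comparison of the genotypes (fold change, mean level, likelihood ratio, p-value and FDR), which was not used. Rows that name no gene, 119 in ECs, 111 in FBs and 105 in CMs, were left out. For each gene the transcript row with the highest mean over samples was kept, and limma 3.58.1 (R 4.3.3, trend and robust variances) compared genotypes within each table, with Benjamini-Hochberg adjustment over all genes and a call at adjusted p under 0.05 and a fold above 1.5. A joint limma fit over the 12157 genes common to the tables, with a shared estimate of spread per gene, gave the contrasts between cell types. Isozyme ratios were compared with exact two-sided permutation tests (scipy 1.17.1). The fitting script was tested on simulated data. No count test was run: reads per value were estimated from the steps between low values only to give the depth, and all low values examined were whole within 0.1 read.

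The 37 members, the lists of other genes and the marker lists were chosen with earlier results of these data known. Per-sample values are given for *Cpt1a*, *Cpt1b*, *Pdk2*, *Pdk4*, members called in ECs or FBs, and in CMs the 2 called members with the largest change in each step; other lists are given as counts and medians, with the 4 genes of lowest adjusted p and *Ppara*, *Ppargc1a*, *Esrra* and *Esrrg*. Members that were near a threshold or set apart by 1 library were named after their values were seen. Alternatives changed the fold threshold, the minimum level (mean of 1 CPM), the pseudocount (5 CPM), the scaling, the centring, the choice of transcript row, the variance model and the samples. Promoters were taken from RefSeq (GRCm38.p6). GC content and length came from the transcripts of the reference annotation. Some genes of the other lists are counted but not reported here by name.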

Additional observations from a re-analysis of the deposited data

Results flagged for a closer look

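Among 76 groups of 4 EC libraries examined for a library far from the other 3, 6 were found, where chance gives about 1 in 20. In *Gadlor*-KO ECs these were *Acadvl* in 1 library (3.93 log2 CPM), and *Cs* (6.53) and *Suclg2* (1.99) in another. In WT ECs all 3 were WT 34, for *Cpt1b* (3.27 log2 CPM), *Dlst* (5.48) and the mean of the 37 members (4.20), and WT 34 was also the EC library with the highest cardiomyocyte markers (5.55). The part of these markers was not tested.

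The genotype difference of the members differed between CMs and ECs for 37 members and between CMs and FBs for 36, by the contrast in limma. That model shares an estimate of spread per gene between the cell types. The *Gadlor*-KO CM libraries also differed from WT CMs in their cardiomyocyte, endothelial, fibroblast and macrophage markers, and genotype and cell makeup cannot be told apart in them.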

How the results depend on the processing

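The CM result depended on what the libraries were set against. Centred on the cardiomyocyte markers, 2 members were higher, 0 lower and the median was 1.12, while 87.5% of all genes were called higher (median 4.44). With WT 6 also left out 1 member was higher, 0 were lower and the median was 1.31. In that fit 10763 of all 13038 CM genes were called higher (median 4.37). Without KO 1 and KO 2 the median of the members was -2.11. Scaling without mitochondrially encoded genes gave a CM median of -2.43 and an FB median of 0.13, with *Pdk2* at 0.026 in FBs. Centring on the sample median put *Pdk4* at -0.031 in FBs. Centred on the fibroblast markers, 2 FB members were higher and the median was 0.75, with *Cpt1a* at 0.12, *Pdk2* at 0.65, *Cpt2* at 0.010 and *Acaa2* at 0.19, and with WT 260 also left out 32 were higher, the median was 1.12 and *Cpt1a* had 0.050, while 64.6% of all genes were called higher and their median was 1.03. The combinations with a library left out, the GC adjustment and the fit without KO 1 and KO 2 were chosen after seeing the data. Without the fold threshold 1 EC member was lower (*Cpt1b*), as were 1569 of all 13929 EC genes.

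The members that turned positive in CMs when centred on the cardiomyocyte markers were *Cpt2* (1.10), *Acadm* (1.44), *Acadl* (0.89), *Acadvl* (0.63), *Acads* (1.19), *Hadha* (1.12), *Hadhb* (1.06), *Hadh* (0.99), *Acaa2* (1.38), *Echs1* (1.02), *Eci1* (0.95), *Eci2* (2.41), *Decr1* (1.62), *Ech1* (1.25), *Etfa* (1.51), *Etfb* (1.03), *Etfdh* (1.15), *Pdha1* (1.64), *Pdhb* (0.91), *Dlat* (1.01), *Pdk2* (0.68), *Pdk4* (2.30), *Cs* (0.92), *Idh2* (0.52), *Idh3a* (1.11), *Idh3b* (1.20), *Idh3g* (1.36), *Ogdh* (0.69), *Dlst* (1.26), *Dld* (2.12), *Sucla2* (1.76), *Suclg1* (1.12), *Suclg2* (2.13), *Fh1* (0.86) and *Mdh2* (0.94). Of these only *Eci2* was called, and every value was below the median of all genes on that scale, 4.44.

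Leaving out 1 library at a time gave 0 to 1 lower EC members (1 without WT 32), 0 to 1 lower FB members (1 without WT 260), 29 to 36 lower CM members with a median between -3.69 and -2.83, and 0 to 1 members that differed between FBs and ECs (1 without FB WT 260 and without CM KO 3). Over all genes, these fits called 645 to 796 lower in ECs, 0 to 447 in FBs and 1368 to 3627 in CMs. The value of EC Pdk4 ran from -0.0529 to 0.25, that of FB Pdk4 from -0.79 to 0.51, that of EC Pdk2 from -0.13 to 0.0082 and that of FB Pdk2 from -0.27 to 0.17.

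CM samples 1 and 2 carry the same numbers in both genotypes. Their deviations from the mean of their genotype correlated at 0.06 and 0.09 over 12411 genes. Those means include WT 6 and KO 1, which stood apart, so the correlations cannot show whether the numbers pair the samples. With the number as a replicate block, 36 members were lower and 1 higher, with a median of -3.67. Of all 13038 CM genes, 3568 were called lower and 3184 higher with this block. In that fit KO 3 and WT 6, each alone with its number, do not enter the genotype difference. It rests on KO 1, KO 2, WT 1 and WT 2 only. The depth of the shallowest CM libraries left 27.7 reads or more behind each member's value.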
